A study of Mus musculus with 8 samples.

Results

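The genes described here are 10 immediate early genes: Fos, Fosb, Jun, Junb, Egr1, Egr2, Nr4a1, Npas4, Arc and Ier2. They were taken by symbol from the 55213 genes listed in the count tables. All 10 were found, and all 10 were among the 26900 genes with at least 10 counts summed over the libraries, which were tested. The rule used the symbols and no measured value, but the 10 genes were chosen with earlier results of these data known.

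Immediate early genes are switched on within minutes of a stimulus by transcription factors that are already present in the cell, such as CREB and serum response factor, and need no new protein for it. Their transcripts are short-lived, and most of the 10 encode transcription factors that act on later genes. In neurons they follow synaptic activity and calcium entry, and in the rodent retina Fos and Egr1 are known to respond to light in cells of the inner retina.

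RNA of whole retinas was sequenced from male C57Bl/6 mice raised germ-free, that is without microbes, with 1 library per mouse and 4 mice per diet. The 4 GF-HFD mice, numbered 13, 15, 16 and 19, were fed a high-fat diet with 23% saturated fat for 8 weeks, starting at 7 weeks of age, and the 4 GF-ND mice, numbered 9, 10, 11 and 12, were fed a normal diet. Both groups were 15 weeks old at collection, both lacked a microbiome, and no group with one is part of the comparison. The time of day of collection is not given in the sources used here. The libraries held 39258006 to 44357518 counts. Levels are given as CPM, which sets the counts of a gene against the scaled size of its library. Differences are log2 fold changes with GF-HFD on top, so that a positive one means more in GF-HFD retinas, and their standard errors (SE) come from edgeR's quasi-likelihood fit. Whole retina mixes many cell types, so that fewer cells of a type and less RNA per cell cannot be told apart.

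The labelled tissue carried its markers. Rod genes held 5.85 to 7.22% of the counts in GF-HFD libraries and 3.32 to 6.06% in GF-ND libraries, and all 10 rod markers were detected in each of the 8. Lens transcripts held 0.0202 to 1.07% in GF-HFD libraries, highest in mouse 19, and 0.0163 to 5.87% in GF-ND libraries, highest in mouse 11. Mouse 11 also had the lowest rod share. The members' own summed share was 0.0115 to 0.0179% in GF-HFD libraries and 0.0112 to 0.0251% in GF-ND libraries, with mouse 11 the lowest and mouse 12 the highest of the 8.

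Promoter sequence was given for 7 of the 10 genes (Fos, Fosb, Jun, Junb, Egr2, Nr4a1 and Npas4) and not for Egr1, Arc or Ier2. Shown here, from RefSeq on GRCm38.p6 and on the strand of the gene, is the stretch just before the start site of 5 of them: Fos, Nr4a1 and Fosb, which had their fitted levels lower in GF-HFD retinas, and Jun and Junb, which had theirs higher. None of these 5 differences passed an unadjusted p under 0.05 in edgeR. Capitals mark the letters TATAAA (the TATA box), TGACGT (part of the CREB site TGACGTCA), TGCGTCA or its reverse complement TGACGCA (a 7-base variant of that site), and TGACATCA (a variant AP-1 site). The full CREB site TGACGTCA, the AP-1 site TGACTCA and the CArG box of serum response factor were searched on both strands and do not occur in these 5 stretches. The search reached no farther than 250 bases before the start site, so sites beyond that would have been missed. The GC box GGGCGG was searched as well and is left in lower case, as it occurs in 4 of the 5 and is common.
Fos: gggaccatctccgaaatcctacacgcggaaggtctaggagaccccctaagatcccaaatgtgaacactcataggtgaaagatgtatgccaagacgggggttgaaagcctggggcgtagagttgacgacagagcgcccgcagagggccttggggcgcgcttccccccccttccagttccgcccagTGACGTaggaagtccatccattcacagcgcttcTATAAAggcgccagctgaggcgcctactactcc
Nr4a1: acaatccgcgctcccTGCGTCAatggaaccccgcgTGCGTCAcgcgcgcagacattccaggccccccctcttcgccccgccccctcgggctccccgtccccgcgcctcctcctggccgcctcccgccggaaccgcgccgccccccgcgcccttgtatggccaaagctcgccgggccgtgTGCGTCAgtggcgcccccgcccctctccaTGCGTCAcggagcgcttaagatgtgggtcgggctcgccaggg
Fosb: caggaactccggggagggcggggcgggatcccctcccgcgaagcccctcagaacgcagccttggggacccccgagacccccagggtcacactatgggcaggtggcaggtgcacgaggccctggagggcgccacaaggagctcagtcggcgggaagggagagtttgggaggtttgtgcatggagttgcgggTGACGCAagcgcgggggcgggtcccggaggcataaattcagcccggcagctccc
Jun: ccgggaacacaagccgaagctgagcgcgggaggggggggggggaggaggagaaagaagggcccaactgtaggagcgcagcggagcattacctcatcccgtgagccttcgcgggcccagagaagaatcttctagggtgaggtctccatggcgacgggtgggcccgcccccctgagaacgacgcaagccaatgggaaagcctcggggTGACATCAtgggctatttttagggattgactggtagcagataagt
Junb: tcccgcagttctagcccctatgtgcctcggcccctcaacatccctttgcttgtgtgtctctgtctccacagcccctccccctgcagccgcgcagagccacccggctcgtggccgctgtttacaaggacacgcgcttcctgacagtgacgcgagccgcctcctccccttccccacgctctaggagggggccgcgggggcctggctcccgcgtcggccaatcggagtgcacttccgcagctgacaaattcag

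The Fos stretch lies at chr12:85473640-85473889, the Nr4a1 stretch at chr15:101266596-101266845, the Fosb stretch at chr7:19310052-19310295 (244 bases), the Jun stretch at chr4:95052223-95052472 and the Junb stretch at chr8:84978749-84978998. The Fosb stretch stops short of its start site, because bases in annotated exons were left out. Positions in it still count from the start site and not from its last letter. The Fos stretch held a TATA box from -33 to -28, counted from the start site, and TGACGT from -66 to -61. The Nr4a1 stretch held TGCGTCA 4 times, beginning at -235, -215, -71 and -42. The Fosb stretch held it once on the opposite strand, as TGACGCA from -60 to -54, and the Jun stretch held TGACATCA from -45 to -38. The Junb stretch held none of these.

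Among all 32851 promoter windows of RefSeq, 12.4% held TATAAA, 6.47% TGACGT, 1.75% TGCGTCA, 2.93% TGACATCA, 1.55% TGACGTCA, 4.46% TGACTCA, 32.7% GGGCGG and 1.47% a CArG box. TGACGT is also part of each TGACGTCA, so the windows of these 2 motifs overlap. The motifs TGACGT and TGACATCA and the 7-base variant were chosen after the members' windows had been read. In the windows not printed, Npas4 held TGACGT at -169 and, on the opposite strand, at -180, and 4 of the 5 windows of Egr2, which overlap in part, held a CArG box. Egr2, fitted higher in GF-HFD retinas, also held TGACGT on the opposite strand, beginning at -56, -57 or -117 depending on the start site. These are matches of letters and no measurement of binding, and a link between the motifs and the diet differences was not tested.

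Per kilobase of exon, 6 of the genes formed an upper set and 3 a lower one. Over the 8 mice, Jun averaged 10.9 ± 1.82 CPM per kb, Fos 10.2 ± 3.19, Egr1 10.1 ± 5.99, Ier2 8.75 ± 1.29, Nr4a1 6.82 ± 2.68 and Junb 4.50 ± 0.848 (SD, n = 8). Npas4, Arc and Fosb averaged 0.650 ± 0.365, 0.588 ± 0.251 and 0.546 ± 0.111 CPM per kb, and Egr2 0.0140 ± 0.0129. Within each set, neighbours in this order overlapped in their ranges. Every value of Junb lay above every value of Npas4, and every value of Fosb above every value of Egr2.

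**Figure D1:**
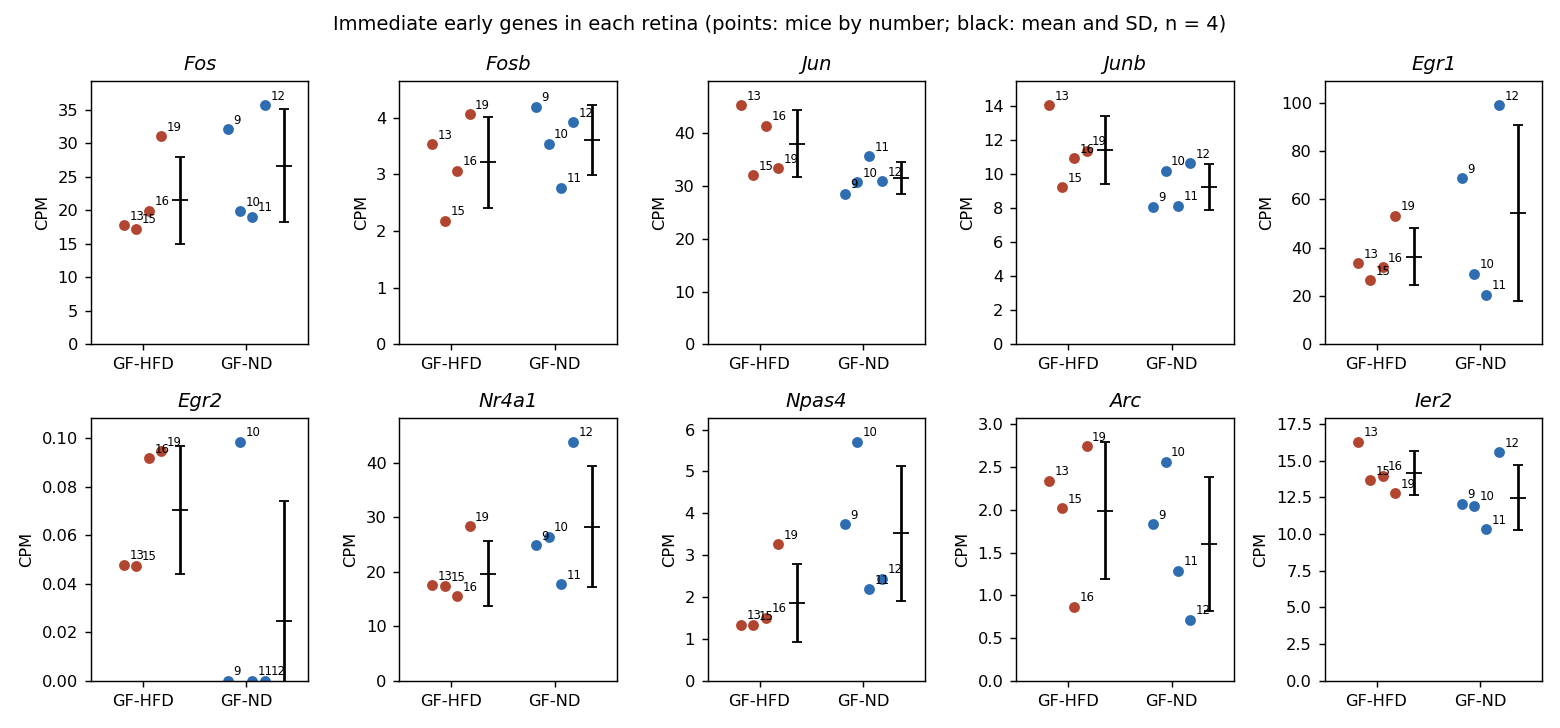
CPM (y axes, from 0) of the 10 immediate early genes in each GF-HFD and GF-ND retina. Points are mice by number and black marks are the mean and SD of 4 mice. The groups overlap in every panel, and Egr1 spans 20.6 to 99.1 CPM.

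None of the 10 genes differed between the diets beyond the spread between mice when adjusted over all genes. At an adjusted p under 0.05, 0 of the 10 were called by edgeR, against 0% of the 26900 genes tested, and limma-voom and DESeq2 also called 0 of the 10 (over all genes they called 0 and 53). At an unadjusted p under 0.05, edgeR had 0 of the 10 higher in GF-HFD retinas, against 2.85% of all genes, and 1 of the 10, Npas4, lower, against 4.53% (7.38% in either direction). Fitted levels were higher in GF-HFD retinas for 5 genes (Jun, Junb, Ier2, Arc and Egr2) and lower for 5 (Fos, Fosb, Egr1, Nr4a1 and Npas4), with a median log2 fold change of 0.01, beside -0.03 over all genes tested. In 0 of the 10 were all mice of a diet on the same side of all mice of the other, which was so for 4.83% of all genes (2.29% higher and 2.54% lower in GF-HFD retinas).

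**Figure D2:**
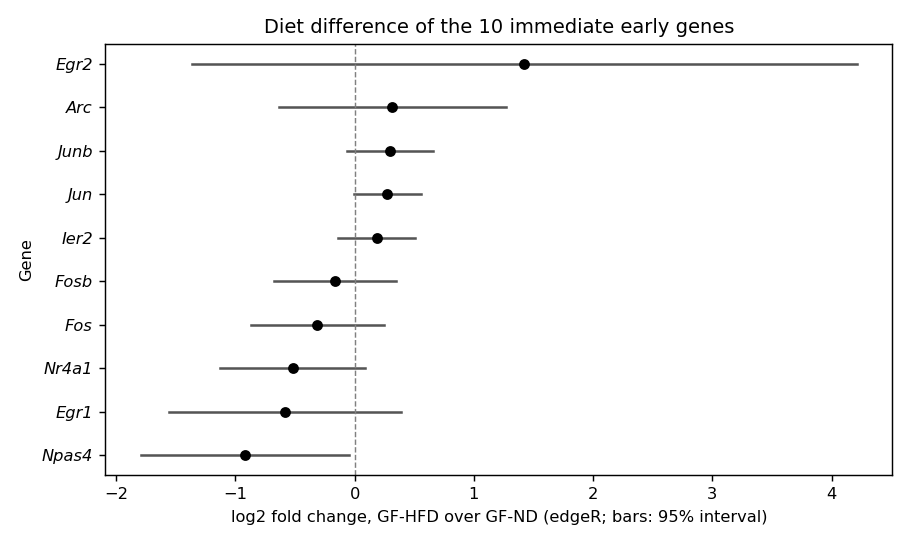
Fitted diet difference of each gene (y axis) as log2 GF-HFD/GF-ND (x axis) from edgeR, with the 95% interval as a bar. The interval lies below 0 for Npas4 (-1.79 to -0.05) and includes 0 for the other 9.

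Fos and Fosb encode partners of the Jun proteins in AP-1, a transcription factor made of pairs of these proteins. Fos, on chromosome 12 from 85473890 to 85477273 (GRCm38), was at 17.8, 17.2, 19.9 and 31.0 CPM in GF-HFD mice 13, 15, 16 and 19, against 32.1, 19.9, 19.01 and 35.7 CPM in GF-ND mice 9, 10, 11 and 12. Mouse 19 stood with GF-ND mice 9 and 12 above 30 CPM, and the other 5 mice lay below 20 CPM. The GF-HFD mean was 21.5 ± 6.46 CPM and the GF-ND mean 26.7 ± 8.49 CPM (SD, n = 4 each), for a log2 fold change of -0.31 (SE 0.25, 95% interval -0.87 to 0.25), with a two-sided exact permutation p of 0.257 where 4 mice against 4 allow none below 0.0286.

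Fosb was the lower of the pair in every mouse. Its gene is on chromosome 7 (19302696 to 19310051), and its levels were 3.53, 2.18, 3.07 and 4.07 CPM in GF-HFD mice, against 4.19, 3.55, 2.76 and 3.92 CPM in GF-ND mice, in the same order of mouse numbers. The mice with the highest levels were again 9, 19 and 12, and mouse 15 was the lowest. The log2 fold change was -0.17 (SE 0.23, interval -0.68 to 0.35, exact permutation p = 0.457).

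Jun and Junb, the AP-1 subunits that can also pair with each other, had fitted levels on the other side. Jun, a gene of a single exon on chromosome 4 from 95049034 to 95052222, was at 45.4, 32.1, 41.5 and 33.4 CPM in GF-HFD mice 13, 15, 16 and 19, against 28.6, 30.7, 35.7 and 31.0 CPM in GF-ND mice 9, 10, 11 and 12. All 4 GF-HFD mice lay above the GF-ND median, and GF-ND mouse 11 overlapped them. The GF-HFD mean was 38.1 ± 6.40 CPM and the GF-ND mean 31.5 ± 3.02 CPM (SD, n = 4 each), for a log2 fold change of 0.27 (SE 0.13, interval -0.01 to 0.56, edgeR p = 0.0569 unadjusted and 0.649 adjusted, exact permutation p = 0.143). Exons of Jun share 232 bases with the antisense transcript Junos, and the strand setting of the counting is not given in the sources used here, so reads there could belong to either.

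Junb, on chromosome 8 from 84974484 to 84978718, was at 14.1, 9.24, 10.9 and 11.4 CPM in the GF-HFD mice and at 8.10, 10.2, 8.15 and 10.7 CPM in the GF-ND mice. Mouse 13 was the highest of the 8 for Junb and for Jun. The log2 fold change of Junb was 0.30 (SE 0.16, interval -0.06 to 0.66, edgeR p = 0.0969 unadjusted and 0.663 adjusted, exact permutation p = 0.143). Its exons share 173 bases with Prdx2, a peroxide-reducing enzyme encoded on the opposite strand. Mouse 13 also had the largest share of skeletal muscle transcripts, 0.00435% of its counts against 0.000521 to 0.000642% in the other GF-HFD mice and 0.000598 to 0.000855% in the GF-ND mice. On that list of 10 markers, Myh4, Myh1, Tnnt3, Tnni2 and Myh2 had 0 counts in at least 1 library of each diet, and the part of muscle RNA in the Jun and Junb levels was not tested.

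The ratio of Fos to Jun within a library, a quantity added after both genes had been seen, was 0.391, 0.536, 0.481 and 0.929 in GF-HFD mice, against 1.12, 0.647, 0.532 and 1.15 in GF-ND mice. Only GF-ND mice 9 and 12 had more CPM of Fos than of Jun. The geometric mean was 0.553 over the GF-HFD mice and 0.817 over the GF-ND mice, a log2 difference of -0.56 (exact permutation p = 0.2), and the groups overlapped.

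Egr1, a zinc finger factor that marks recent neuronal activity, was the most variable of the 10 for its level. Its gene is on chromosome 18 (34859823 to 34864984), and its levels were 33.5, 26.5, 31.9 and 53.3 CPM in GF-HFD mice 13, 15, 16 and 19, against 68.7, 29.2, 20.6 and 99.1 CPM in GF-ND mice 9, 10, 11 and 12. The GF-ND mice held both the lowest and the highest value of the 8, which were 4.82-fold apart, and the GF-HFD mice lay between them. The GF-HFD mean was 36.3 ± 11.7 CPM and the GF-ND mean 54.4 ± 36.4 CPM (SD, n = 4 each), for a log2 fold change of -0.58 (SE 0.44, interval -1.56 to 0.39, exact permutation p = 0.543). Without GF-ND mouse 12 the log2 fold change was -0.12 and the difference of the mean log2 CPM was 0.02.

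Egr2, known from myelinating Schwann cells and the hindbrain, was near the limit of detection. Its counts, on chromosome 10 from 67535475 to 67542188, were 2, 2, 4 and 4 in the GF-HFD mice and 0, 4, 0 and 0 in the GF-ND mice. All 8 counts were even. Across the genes of a library, even counts from 1 to 12 outnumbered odd ones by 1.91 to 2.36 times, so the counting error of such small counts cannot be read from their size. The sums of 12 and 4 counts gave a log2 fold change of 1.42 with an interval of -1.36 to 4.21, and no difference was detectable at this depth.

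**Figure D3:**
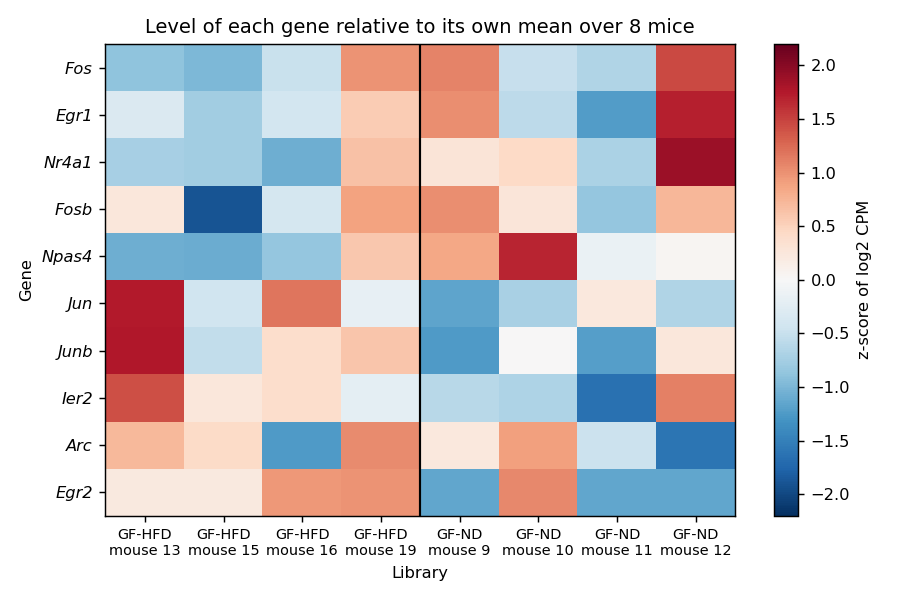
Each gene (rows) in each GF-HFD and GF-ND library (columns), as the z-score of its log2 CPM over the 8 mice. Fos, Egr1 and Fosb have their highest values in the same mice, GF-HFD mouse 19 and GF-ND mice 9 and 12, and Jun and Junb have theirs in GF-HFD mouse 13.

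Nr4a1 (Nur77), an orphan nuclear receptor, was at 17.5, 17.3, 15.5 and 28.4 CPM in GF-HFD mice 13, 15, 16 and 19, against 24.9, 26.4, 17.7 and 43.8 CPM in GF-ND mice 9, 10, 11 and 12. It lies on chromosome 15 from 101254269 to 101274795. GF-HFD mice 13, 15 and 16 were the lowest 3 of the 8, while mouse 19 was second only to GF-ND mouse 12. The GF-HFD mean was 19.7 ± 5.87 CPM and the GF-ND mean 28.2 ± 11.1 CPM (SD, n = 4 each), for a log2 fold change of -0.52 (SE 0.27, interval -1.13 to 0.09, edgeR p = 0.087 unadjusted and 0.658 adjusted, exact permutation p = 0.229).

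Npas4, a factor induced by calcium in neurons that acts on inhibitory synapses, had the lowest fitted fold change of the 10. Its gene is on chromosome 19 (4984355 to 4990316), and its levels were 1.34, 1.33, 1.51 and 3.26 CPM in GF-HFD mice, against 3.74, 5.71, 2.19 and 2.44 CPM in GF-ND mice. GF-HFD mice 13, 15 and 16, with 56, 56 and 66 counts, lay below all 4 GF-ND mice, which had 92 to 232, and mouse 19, with 138, lay among them. The GF-HFD mean was 1.86 ± 0.939 CPM and the GF-ND mean 3.52 ± 1.61 CPM (SD, n = 4 each), for a log2 fold change of -0.92 (SE 0.39, interval -1.79 to -0.05). The edgeR p was 0.0406 unadjusted and 0.649 adjusted, rank 1646 of the 26900 genes tested, and the exact permutation p was 0.0857. The unadjusted p was over 0.05 without GF-HFD mouse 13 (0.100), 15 (0.104) or 16 (0.0948) and without GF-ND mouse 9 (0.0763) or 10 (0.150).

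Arc, which encodes a capsid-like protein of the synapse that regulates AMPA receptors, is on chromosome 15 from 74669083 to 74672570. It was at 2.34, 2.02, 0.870 and 2.74 CPM in the GF-HFD mice and at 1.83, 2.56, 1.29 and 0.718 CPM in the GF-ND mice. Its lowest mouse was GF-ND mouse 12, the mouse with the most Fos, Egr1 and Nr4a1, and its highest was GF-HFD mouse 19. The log2 fold change was 0.32 (SE 0.43, interval -0.64 to 1.27, exact permutation p = 0.514).

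Ier2, a nuclear protein induced by growth factors, on chromosome 8 from 84661331 to 84662852, was at 16.3, 13.7, 14.0 and 12.8 CPM in the GF-HFD mice and at 12.1, 11.9, 10.3 and 15.5 CPM in the GF-ND mice. All GF-HFD mice lay above the GF-ND median, but GF-ND mouse 12 was the second of the 8 after mouse 13. The log2 fold change was 0.19 (SE 0.15, interval -0.14 to 0.51, exact permutation p = 0.229).

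The 10 genes differed in how far mice of one diet varied. As the SD of log2 CPM within diet, it was 0.804 for Egr1, and only 22 of the 2669 genes within 0.5 log2 CPM of its level had a larger one (99.2% had a smaller one, median 0.147). For Nr4a1 the SD was 0.469, above 95.2% of the genes of like level, and for Fos 0.431, above 93.9%. Arc (0.736) stood above 89.6% and Npas4 (0.615) above 85.8% of theirs. Jun (0.195), Junb (0.230), Ier2 (0.202) and Fosb (0.325) lay nearer the middle, above 69.6, 56.0, 52.1 and 47.0% of the genes of like level. Egr2 (0.616) stood above 17.8% of its own, among genes with a few counts each.

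**Figure D4:**
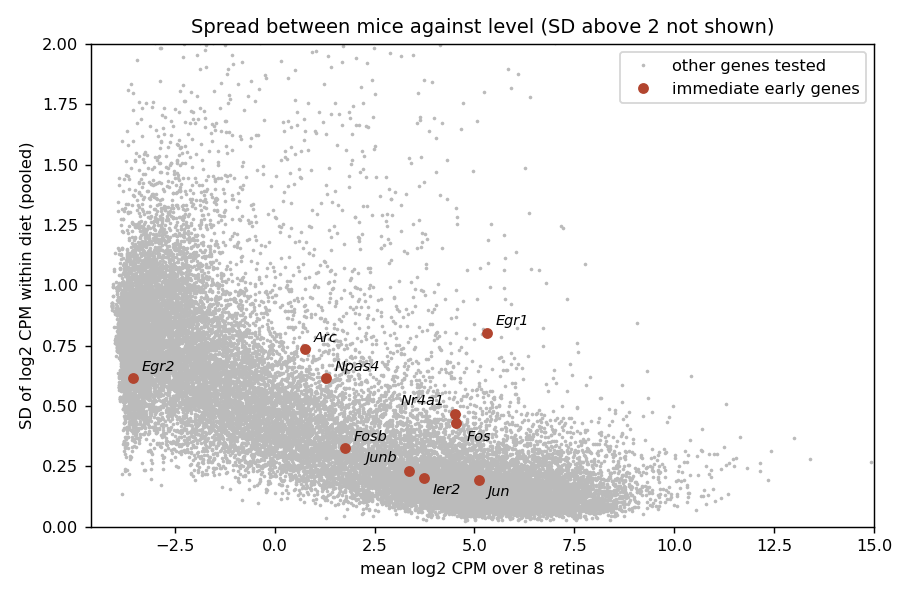
SD of log2 CPM within diet, pooled over both diets (y axis), against the mean log2 CPM over the 8 retinas (x axis), for the 26900 genes tested (grey) and the 10 immediate early genes (red). Egr1, at an SD of 0.804, lies well above most genes of its level, while Ier2 and Junb lie among them.

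The mice did not order alike for all 10 genes. The 3 mice with the most Fos (GF-HFD mouse 19, GF-ND mice 9 and 12) also had the most Egr1 and the most Fosb, and for Nr4a1 they held ranks 2, 4 and 1 of the 8. For Npas4 they held ranks 3, 2 and 4, behind GF-ND mouse 10. For Jun they held ranks 4, 8 and 6, and the highest was mouse 13, which was at rank 7 for Fos. As the Fos levels fell into separate sets of 3 and 5 mice with no value between 19.9 and 31.0 CPM, no correlation over the 8 mice is given, and sets of that size cannot test one. The 3 mice span both diets, and their lens shares (1.07, 0.0371 and 0.0163%) include the second highest and the lowest of the 8. What set these 3 mice apart was not tested.

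**Figure D5:**
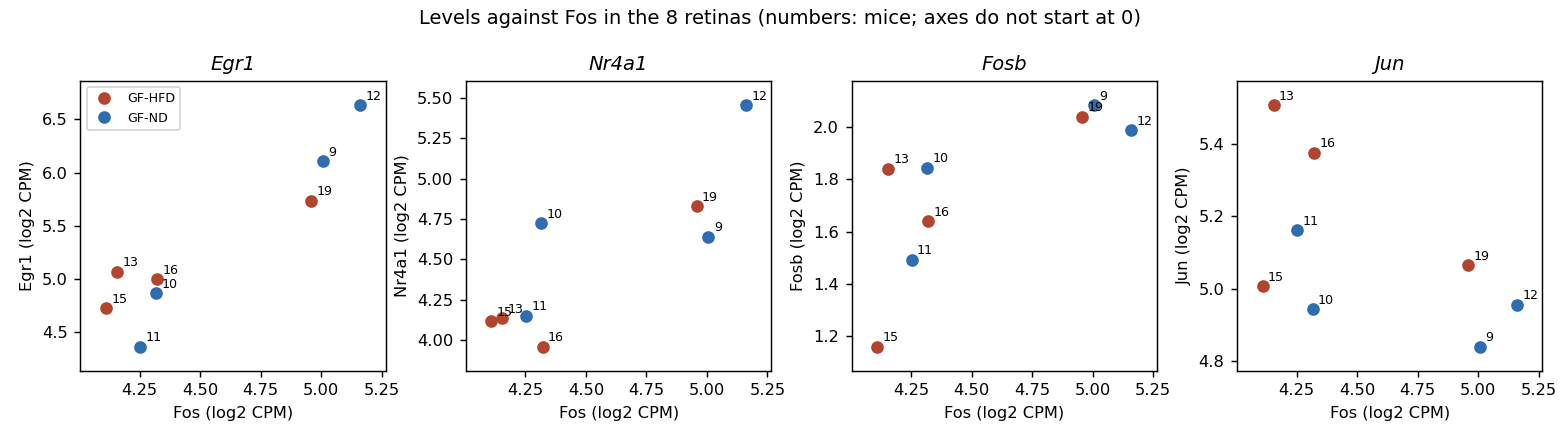
Log2 CPM of Egr1, Nr4a1, Fosb and Jun (y axes) against that of Fos (x axes) in the 8 retinas, by mouse number and diet (the axes do not start at 0). GF-HFD mouse 19 and GF-ND mice 9 and 12 lie apart on the Fos axis and have the most Egr1 and Fosb, while the most Jun is in GF-HFD mouse 13.

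Of the 11970 genes with a mean of at least 5 CPM, the 6 most like the mean profile of the 10 (Pearson r over 8 mice with the mean of their z-scores, a description) were Gm9077 (0.88), Zswim3 (0.86), Gm16536 (0.86), Ccdc89 (0.86), 2700062C07Rik (0.85) and Cbx1 (0.84). As the highest of 11970 values over 8 mice, these r can be high by selection alone, and none was tested. The profile averages genes for which the mice did not order alike, with Egr2 and its few counts among them. That profile was highest in GF-HFD mouse 19 (0.59) and lowest in GF-ND mouse 11 (-0.78). The fitted diet differences of the 6 were small, from -0.21 for Ccdc89 to 0.01 for Zswim3 on the log2 scale.

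How many of the genes passed an unadjusted p under 0.05 depended on the mice included. Without GF-HFD mouse 19, Jun was higher (log2 fold change 0.33) and Fos (-0.54), Nr4a1 (-0.75) and Npas4 (-1.34) lower, beside 2 and 3.69% of all genes in these directions. Without GF-ND mouse 11, Jun was higher (0.35) and Egr1 (-0.86), Nr4a1 (-0.69) and Npas4 (-1.08) lower, beside 12.1 and 11% of all genes, and edgeR then called 421 genes at an adjusted p under 0.05, with 0.118 the smallest among the 10. Without GF-HFD mouse 15, Jun (0.35) and Junb (0.39) were higher, beside 1.63% of all genes. Without GF-ND mouse 10, where all the other GF-ND counts were 0, Egr2 was higher, beside 2.02% of all genes. Without GF-ND mouse 12, Ier2 (0.31) was higher and Npas4 (-1.06) lower, beside 2.62 and 3.47% of all genes. Without GF-HFD mouse 13 or 16 or GF-ND mouse 9, none of the 10 passed.

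Mice 11 and 19 had the most lens transcripts of their diets, and leaving out both was added after the data had been seen. With 3 mice against 3, edgeR gave Jun a log2 fold change of 0.40, Fos -0.67, Egr1 -1.10, Nr4a1 -0.92 and Npas4 -1.50, each at an unadjusted p under 0.05, beside 9.51% of all genes higher and 9.75% lower. Jun, Nr4a1 and Npas4 then no longer overlapped between the diets, as did not 24% of all genes. The smallest adjusted p among the 10 was 0.0603, and the exact permutation p was 0.1 for Jun, Nr4a1 and Npas4, the smallest that 3 against 3 allow. Mouse 19 also had the most Fos, Egr1, Nr4a1 and Npas4 of the GF-HFD mice, and Fos, Nr4a1 and Npas4 already passed without it alone. Fibroblast transcripts too were highest of each diet in these mice (0.0331% in mouse 19, 0.0279% in mouse 11). Leaving them out cannot separate lens RNA from their other traits, and the part of lens RNA in these levels was not tested.

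The 35 other immediate early genes tested were likewise not called. In edgeR 0 of 35 had an adjusted p under 0.05, and 24 were fitted higher and 11 lower, with a median log2 fold change of 0.11. At an unadjusted p under 0.05, Egr4, a relative of Egr1, was higher (1.37, SE 0.58), and Nr4a3, a relative of Nr4a1, lower (-1.08, SE 0.36). These were 1 of 35 in each direction, beside 2.85% of all genes higher and 4.53% lower. Egr4 was at low levels, 0.378 ± 0.176 CPM in GF-HFD against 0.144 ± 0.0868 CPM in GF-ND mice (SD, n = 4 each). Nr4a3 was at 1.77, 1.28, 1.33 and 1.37 CPM in the GF-HFD mice and at 4.72, 3.74, 2.43 and 1.27 CPM in the GF-ND mice. Mouse 19 was thus not set apart for Nr4a3 as it was for Nr4a1 and Npas4, and GF-ND mouse 12 was the lowest of the 8. Egr4 no longer passed without GF-HFD mouse 13 or 19 or GF-ND mouse 10 or 12, nor Nr4a3 without GF-ND mouse 9 (log2 fold change -0.79). Csrnp1, a nuclear protein, was next by p but did not pass (0.45, SE 0.27). The most abundant of the list were the kinase Sgk1, at 439 ± 12.8 CPM in GF-HFD against 404.8 ± 45.3 CPM in GF-ND mice, and the clock gene Per1, at 92.5 ± 3.93 CPM in GF-HFD against 100.8 ± 27.7 CPM in GF-ND mice (SD, n = 4 each).

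Genes that act before and after the immediate early genes were also not called, 0 of 27 upstream regulators, 0 of 13 phosphatases and feedback inhibitors of MAP kinase signalling and 0 of 14 later neuronal activity genes at an adjusted p under 0.05. Among the upstream regulators, 17 were fitted higher and 10 lower (median 0.03), and Mef2c, a factor that binds promoters of several immediate early genes, was the 1 of the 27 that passed an unadjusted p under 0.05, beside 2.85% of all genes higher, with 212.8 ± 14.9 CPM in GF-HFD against 179.5 ± 21.7 CPM in GF-ND mice (SD, n = 4 each) and 0.25 (SE 0.10) on the log2 scale. Of the 8 mice, leaving out any but GF-HFD mouse 19 or GF-ND mouse 12 brought Mef2c above that threshold. Elk1, the partner of serum response factor (-0.25, SE 0.12), the CREB coactivator Crtc2 (-0.29, SE 0.14) and Mef2d (0.08, SE 0.13) did not pass. Of the feedback genes, 6 were fitted higher and 7 lower (median -0.03). Dusp8, a phosphatase of the JNK and p38 kinases, was at 191.4, 180.5, 171.6 and 163.8 CPM in GF-HFD mice, against 154.0, 150.7, 154.9 and 154.1 CPM in GF-ND mice, so that the diets did not overlap. All GF-HFD values also lay above all GF-ND values for 2.29% of all genes tested. The log2 fold change of Dusp8, 0.20 (SE 0.07), passed an unadjusted p under 0.05, the 1 of 13 to do so, beside 2.85% of all genes higher. It did not pass without GF-HFD mouse 13 (0.16). The inhibitors of growth factor signalling Spry4 (-0.31, SE 0.18), Spry1 (-0.47, SE 0.42) and Spred1 (0.07, SE 0.09) did not pass. Among the later genes, 10 were fitted higher and 4 lower (median 0.05), with the synaptic pentraxin Nptx2 at 0.16 (SE 0.11), its receptor-like relative Nptxr at 0.13 (SE 0.10), Nptx1 at 0.06 (SE 0.09), the receptor Gpr3 at -0.37 (SE 0.29) and the secretory granule protein Scg2 at 0.08 (SE 0.11).

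Of 13 AP-1 partners tested, 4 of which (Jund, Fosl1, Fosl2 and Atf3) are also among the 35 genes above, 7 were fitted higher and 6 lower (median 0.04), and 1, lower, passed an unadjusted p under 0.05, beside 4.53% of all genes. This was Mafg, a small Maf protein, with 92.6 ± 7.33 CPM in GF-HFD against 120.5 ± 26.7 CPM in GF-ND mice (SD, n = 4 each) and -0.38 (SE 0.15) on the log2 scale, and it did not pass without GF-HFD mouse 15 or 16 or GF-ND mouse 10 or 12. Atf7 (-0.20, SE 0.10), Atf2 (0.14, SE 0.08) and Atf4 (0.04, SE 0.13), which bind related sites, did not pass. Heat shock genes, which respond to protein stress, were fitted higher in 5 of 12 and lower in 7 (median -0.07), and 1, Hspb1, passed an unadjusted p under 0.05, beside 4.53% of all genes lower. Hspb1, the small heat shock protein Hsp27, was at 230.7 CPM in GF-ND mouse 11 and at 1.94 to 8.63 CPM in the other 7 mice, and its log2 fold change of -3.70 (SE 1.46) turned to 0.66 (SE 0.39) without that mouse. Dnajb1 (-0.28, SE 0.21), Hsp90aa1 (0.14, SE 0.12) and Hspa8 (-0.14, SE 0.19) did not pass. The adjusted p was over 0.05 for all members of both lists.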

How the data were processed

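RNA of 8 retinas was sequenced, 1 library per mouse. The authors aligned the reads to GRCm38 (mm10) with STAR 2.4.2, counted them by gene with featureCounts (Subread 1.4.6-p1), and deposited whole-number counts with no scaling or filter. Whether both reads of a pair were counted is not given in the sources used here, and even values were the more frequent among low counts. The counts were scaled by TMM, and diets were compared with edgeR 4.0.16 in R 4.3.3 over the genes with at least 10 counts in all, with Benjamini-Hochberg adjustment over these. Alternatives were limma-voom (limma 3.58.1), DESeq2 1.42.0, RLE factors, library totals, upper-quartile factors, no filter, filterByExpr, at least 10 CPM in 4 libraries, and leaving out each mouse. Log2 CPM used a prior count of 2 (0.5 as an alternative), and single genes were tested by a two-sided exact permutation test over 70 arrangements. Intervals are 95% and use the t distribution of the edgeR fit. The steps were tested on counts simulated from the mean levels and library sizes of these data. There edgeR called 52% of the genes changed 2-fold and 86% of those changed 4-fold, with 13 false calls. DESeq2 made 71 false calls. Genes with few counts were not among those changed. Positions, exon lengths and overlaps are those of GENCODE vM21, while the study counted on vM23, and all 10 genes were found there.

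The 10 genes and the other lists were chosen with earlier results of these data known. The genes named are the 10, then per list the 3 with the smallest p and the 2 with the highest level, and the 6 most like the mean profile. Correlations with Fos had been planned and are not given, because the Fos levels fell into separate sets of mice. The symbols 1-Mar and 2-Mar stand on 2 lines each and were not used for single genes.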

Additional observations from a re-analysis of the deposited data

Results flagged for a closer look

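In each of the 20 sets of 4 mice (10 genes in both diets), the gap of the highest or lowest mouse to its nearest neighbour was compared with the range of the 4, and it passed Dixon's critical value for 4 values in 2 sets, where chance passes about 1 in 20. Npas4 in GF-HFD mouse 19 had a log2 CPM of 1.73, against 0.46, 0.47 and 0.64 in the other GF-HFD mice (gap over range 0.859). Egr2 in GF-ND mouse 10 had a log2 CPM of -2.77, against -4.39 in the other GF-ND mice, which had 0 counts each, so that this value rests on 4 counts. As the other GF-ND mice tie at 0, the gap equals the range whatever the count in mouse 10. The chance rate above does not apply to this set.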

How the results depend on the processing

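The sign of the edgeR, limma-voom or DESeq2 log2 fold change of each of the 10 genes was kept in every fit run, and 0 of the 10 had an adjusted p under 0.05 in any. With 4 mice per diet, the 95% interval of the log2 fold change reached from -1.56 to 0.39 for Egr1 and from -1.36 to 4.21 for Egr2. At 10 CPM in 4 libraries 6 of the 10 could be tested and 0 passed an unadjusted p under 0.05 (0 lower), since Npas4 was not among them.

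Genes called at an adjusted p under 0.05 were 53 with DESeq2, 55 without mice 11 and 19, and 0 to 421 when 1 mouse was left out. Genes higher at an unadjusted p under 0.05 were 766 in the main fit (2.85%), 416 with library totals (1.55%) and 215 at 10 CPM (2.09% of 10291). They were 2445 without mice 11 and 19 (9.51%) and 432 to 3177 with 1 mouse left out. Genes lower were 1219 in the main fit (4.53%) and 680 at 10 CPM, a larger share (6.61%) of the fewer genes tested there. They were 2508 without mice 11 and 19 (9.75%) and 782 to 2890 with 1 mouse left out. Of the 10 genes, 1 was higher and 4 lower without mice 11 and 19, and 0 to 2 and 0 to 3 with 1 mouse left out. The diets did not overlap for 3 of the 10 and 23.98% of all genes without mice 11 and 19, and for 0 to 2 and 6.37 to 19.8% with 1 mouse left out. Genes called among the 10 were 0 throughout. Without GF-ND mouse 12 the mean log2 CPM of Egr1 was higher in GF-HFD retinas by 0.02 (exact permutation p = 1), while its exact p over the mice left out ranged from 0.229 to 1. The cause of these shifts was not tested. No paired analysis was possible because the mice of the diets share no numbers.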
